A study of Aspergillus niger with 11 samples.

Results

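The passage from the middle to the late oxygen-limited phase was examined in a fed-batch fermentation of Aspergillus niger strain DS03043, with 2 RNA sequencing libraries of the late phase (66 h) set against 3 of the middle phase (42 h), out of 11 libraries in the series. The comparison was made over the genes whose level averaged at least 30 FPKM across these 5 libraries, which were 2751 of the 10445 genes listed. FPKM is the number of fragments scaled to transcript length and to the mapped total. All 11 libraries came from the same strain and carry the same treatment label, an oxygen-limited fermentation, run in a 5 L fermenter stirred at 375 rpm, at 34 °C and pH 4.5, aerated at 1 culture volume per minute under an overpressure of 0.05 MPa. The other 6 libraries, 3 of the exponential phase (18 h) and 3 of the transitional or early limited phase (24 h), entered the fit as well, where they add to the estimate of the spread between replicates and to the choice of genes tested. Sampling times are listed once for the whole series, and were assigned to the named phases from earliest to latest. Triplicates are described for each time, of which 2 were analysed here for the late phase. Whether replicates were separate cultures is not stated, and p-values then reflect no more than the spread among these libraries, which may be technical.

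Aspergillus niger is a filamentous fungus grown in industry for secreted enzymes and organic acids. Its main secreted product on starch and maltose is glucoamylase, encoded by glaA, which releases glucose from starch. In submerged culture the mycelium takes up dissolved oxygen quickly, and respiration, acid formation and protein secretion all respond to its supply. The fungus also has an alternative oxidase, which passes electrons from ubiquinol to oxygen without pumping protons. Both phases compared here were oxygen-limited and differ in culture age, so that age and the length of the limitation cannot be told apart.

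Few reads stood behind most values. The FPKM that 1 read is worth was recovered from whole-number steps in the values of 2359 of the 2751 genes (85.8%), against 1.32% when the values were first scaled by random factors. In these genes a 66 h library held a median of 8 reads per gene and a 42 h library 7, and 1 read was worth 9.99 and 10.6 FPKM in the 66 h libraries and 11.1 to 11.5 FPKM in the 42 h libraries (medians over genes). For genes with a mean of 30 to 100 FPKM the medians were 5 reads at 66 h and 4 at 42 h, and for genes at 300 to 1000 FPKM 50 and 45 reads. Reads were recovered for 64.4% of the genes at 300 to 1000 FPKM and for 16.4% at 1000 FPKM or more. Recovery went no higher than 300 reads, which favours genes with fewer reads. The 2751 genes took 94.6% and 94.5% of the summed FPKM in the 66 h libraries and 94.0% to 94.3% in the 42 h libraries. Each 66 h library listed 102 and 111 of the 2751 genes at 0, and the 42 h libraries 99 to 107. Such a 0 can fall on a gene that every cell uses: the ribosomal protein gene rps28 was listed at 105 FPKM in 66 h replicate 1 and at 0 in 66 h replicate 2. A library outside the comparison stood apart. Across the 567 genes with a mean of at least 300 FPKM, 24 h replicate 1 correlated with the 42 h libraries at 0.811 to 0.829 (Pearson), against 0.633 to 0.665 for 24 h replicates 2 and 3. The count of calls is therefore also given without it.

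The late and middle limited phases shared most of their most abundant transcripts. Of the 100 genes with the highest mean at 66 h, 90 were also among the 100 highest at 42 h, and 9 of the 10 highest were shared. Single libraries of the 2 phases shared 85 to 91 of their 100 highest genes, the 2 libraries of 66 h shared 88, and pairs of 42 h libraries shared 90 to 94. The correlation of log2(FPKM + 1) across all 2751 genes, which are not independent replicates, was 0.652 to 0.687 for the 6 pairs of a 66 h with a 42 h library. It was 0.710 for the pair of 66 h libraries and 0.684 to 0.701 for the 3 pairs of 42 h libraries. Abundant genes scattered less. Across the 567 genes of at least 300 FPKM the correlation was 0.894 to 0.918 between the phases, 0.940 within 66 h and 0.927 to 0.940 within 42 h. The correlation of ranks (Spearman) of these genes was 0.807 to 0.862 between the phases, 0.887 within 66 h and 0.862 to 0.882 within 42 h.

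The same order held for the size of the differences. At 300 FPKM or more, the log2 levels of 2 libraries differed with an SD over genes of 0.49 to 0.56 between the phases, 0.42 within 66 h and 0.42 to 0.46 within 42 h. Over all 2751 genes the SD was 1.73 to 1.81 between the phases, 1.67 within 66 h and 1.67 to 1.73 within 42 h. Every pair between the phases thus lay above every pair within a phase at the higher level, by a small margin, while over all genes the ranges of the correlation and of the SD overlapped with those within 42 h.

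**Figure D1:**
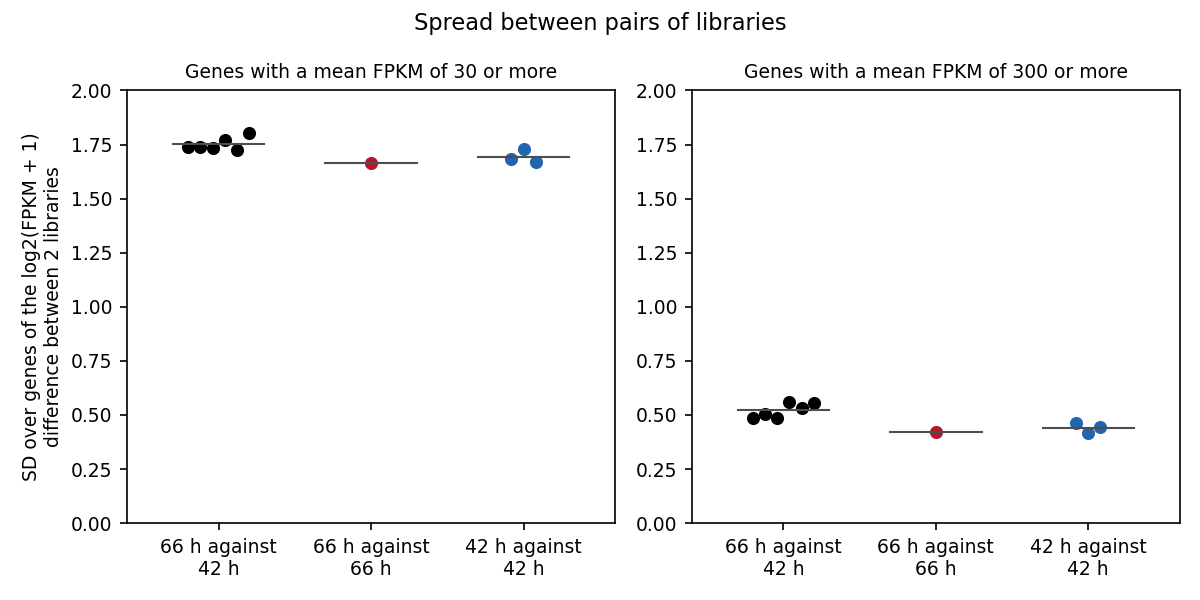
SD over genes of the log2(FPKM + 1) difference between 2 libraries, for genes with a mean of at least 30 FPKM (left, 2751 genes) and at least 300 FPKM (right, 567 genes). Points are pairs of libraries and lines are means; at the higher level the 6 pairs of 66 h with 42 h (0.49 to 0.56) sit above the pair within 66 h (0.42) and the 3 pairs within 42 h (0.42 to 0.46).

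In log2, the median fold change at 66 h relative to 42 h was -0.0029 over the genes tested, and the median size of the change was 0.25 in log2 (1.19-fold) for genes of at least 300 FPKM. For 341 of these 567 genes (60.1%) the 95% interval of the log2 fold change, not adjusted for the number of genes, lay within 2-fold in either direction. The share was 76.0% (111 of 146) at 1000 FPKM or more, 54.6% at 300 to 1000 FPKM, 14.3% at 100 to 300 FPKM and 0.816% at 30 to 100 FPKM, where a 2-fold change was within the interval of nearly every gene. Over all 2750 genes tested it was 455 (16.5%). The same 455 genes made up 5.23% of the 8693 genes tested at any level, as no gene under 30 FPKM had such an interval. The remaining gene of the 2751, An07g02120, was listed above 0 in a single library and was not tested. Without a trend in the variance only 13 genes had an interval within 2-fold.

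Among genes of at least 300 FPKM, the 6 whose 95% interval reached least far from 0 are described here. They carry no symbol. An03g06560, which follows glaA in the reference order and had the highest mean of all genes, was at 45328 and 42100 FPKM in the 66 h libraries, against 44962, 45340 and 48179 FPKM in the 42 h libraries. Its log2 fold change was -0.08 with a 95% interval of -0.23 to 0.07. An01g10180 was at 6771 and 6145 FPKM at 66 h, against 6751, 5864 and 6639 FPKM at 42 h (log2 fold change 0.01, 95% interval -0.23 to 0.25). In both genes the libraries of the 2 phases overlapped. An03g03730, An05g00380, An18g06610 and An11g09590, with means of 1309.7 to 6719 FPKM at 66 h and 1359.9 to 7197 FPKM at 42 h, had log2 fold changes of -0.10 to 0.04, and their intervals reached no further than 0.33 from 0.

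Few genes passed the test of a difference. Limma called 7 of the 2750 genes at a Benjamini-Hochberg adjusted p under 0.05, 0 higher and 7 lower at 66 h, and 221 (8.04%) had an unadjusted p under 0.05, against 6.56% of all genes tested. Over all 8693 genes tested, 0.426% were called, 0.265% higher and 0.161% lower at 66 h. The share of 7 in 2750 was thus below this background. By direction it was below for increases and above for decreases. The 23 genes called higher over all genes tested had a mean under 30 FPKM. Of the 7, 5 had reached the mean of 30 FPKM through the 42 h libraries alone, so the level minimum bears on their direction; in all, 270 of the 2751 genes had a mean under 30 FPKM at 66 h and 157 at 42 h. Without 24 h replicate 1 the count was 14, of which 4 rose and 10 fell, and over all genes it was 62, against 37 with it. At 300 FPKM or more it was then 7, against 2 with it: An12g03030, An07g08810 and An16g01820 rose, and An06g00500, An08g10990, An04g03200 and An16g03870 fell. With only the 5 libraries of the 2 phases 0 of the 2747 genes then tested were called, with 286 at an unadjusted p under 0.05. In bulk RNA, fewer cells of a kind and less RNA per cell cannot be told apart.

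Of the 7 genes called, 2 had a mean of at least 300 FPKM. An06g00500 reached it through the 42 h libraries, with means of 190 FPKM at 66 h and 536 FPKM at 42 h. An06g00500 fell to 241 and 139 FPKM in the 66 h libraries, against 536, 503 and 569 FPKM in the 42 h libraries. These values correspond to 33 and 18 reads at 66 h and to 64, 62 and 68 reads at 42 h. Both 66 h libraries lay below all 42 h libraries, and the log2 fold change was -1.55 (SE 0.23, limma with Benjamini-Hochberg, adjusted p = 0.0278). The gene stood at 787 ± 32.5 FPKM at 18 h and 673 ± 44.8 FPKM at 24 h (SD, n = 3 each), so that 66 h was its lowest level of the 4 times. Its call was kept in 21 of 25 alternative settings, with adjusted p between 0.00989 and 0.448 over the 25, and was lost, among others, without 66 h replicate 2 (limma with Benjamini-Hochberg, adjusted p = 0.138), without a variance trend (0.448) and with only the 5 libraries (0.243).

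An08g10990 fell to 547 and 368 FPKM at 66 h, against 1344, 1274 and 1142 FPKM at 42 h; its reads could not be recovered. The groups did not overlap, and the log2 fold change was -1.48 (SE 0.26, limma with Benjamini-Hochberg, adjusted p = 0.0412). The gene had been at 901 ± 121 FPKM at 18 h and 1771 ± 498 FPKM at 24 h (SD, n = 3 each). This call was the less firm of the pair: it was kept in 8 of 25 alternative settings, and adjusted p was 0.0763 without 66 h replicate 1 and 0.347 without 66 h replicate 2. It was also lost without any of the 18 h libraries, 24 h replicate 2 or any of the 42 h libraries (limma with Benjamini-Hochberg, adjusted p = 0.0537 to 0.0862).

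The other 5 called genes were listed at 0 in both 66 h libraries and rested on a handful of reads. An04g00650 was at 78.3, 153 and 77.5 FPKM at 42 h, which is 1, 2 and 1 reads. An05g02290 was at 162, 52.6 and 268 FPKM (3, 1 and 5 reads) and An12g09280 at 50.1, 97.2 and 24.97 FPKM (2, 4 and 1 reads). An11g01050 had 1, 2 and 1 reads and An16g07290 1, 3 and 6 reads in the 42 h libraries. No fold change is given for these 5 genes. In all, 25 of the 2751 genes were listed at 0 in both 66 h libraries and 5 in all 3 of the 42 h libraries, every one of them with a mean under 100 FPKM.

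**Figure D2:**
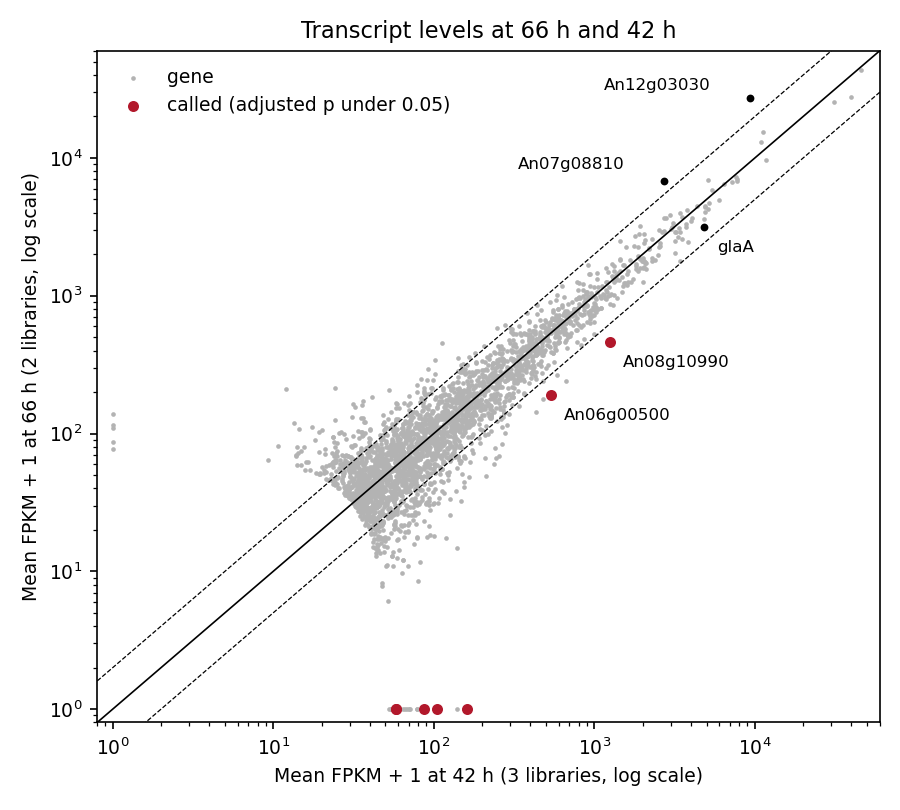
Mean FPKM + 1 at 66 h (vertical axis, 2 libraries) against 42 h (horizontal axis, 3 libraries), both on log scales, for the 2751 genes; the solid line marks equal levels and the dashed lines 2-fold differences. Red points are the 7 genes called, of which 5 lie at the bottom at 0 FPKM for 66 h, and the cloud narrows towards the diagonal as the level rises.

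Genes whose libraries did not overlap between the phases were described as well, since 2 libraries against 3 cannot go below p = 0.1 in an exact permutation test. Of the 2751 genes, 371 (13.5%) were higher in both 66 h libraries than in all 42 h libraries, against 7.68% of all genes tested, and 432 (15.7%) were lower, against 10.5%. The balance depends on the scaling: after median-of-ratios scaling 420 were higher and 393 lower. Among the 567 genes of at least 300 FPKM, 97 (17.1%) were higher and 108 (19.0%) lower. Libraries that tie at 0, as many low genes do, count as overlapping, which keeps down the shares over all genes tested. Without ties, a single regrouping of the 10 possible has both 66 h libraries highest, which is a share of 0.1. The same holds for both lowest. The changes were mostly small: the median was 1.39-fold for the 97 and 1.34-fold for the 108, and 36 and 24 of them reached 1.5-fold.

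The largest increases among these abundant genes by log2 fold change were in An12g03030, An09g04920 and An07g08810, none of which has a symbol. An12g03030 was at 33064 and 21486 FPKM in the 66 h libraries, against 8176, 10659 and 9039.7 FPKM in the 42 h libraries. Both late libraries lay far above every 42 h library, and the gene ranked behind only An03g06560, An02g11627 and An16g05680 in mean level. Its mean was 2.94 times as high at 66 h, with a log2 fold change of 1.53 (95% interval 0.86 to 2.20), and it was not called (limma with Benjamini-Hochberg, adjusted p = 0.0678). It was called in 3 of 25 alternative settings and not in the other 22. The calls came without 24 h replicate 1 (limma with Benjamini-Hochberg, adjusted p = 0.023) and with weights by level (0.0184). The remaining call came when only genes of at least 300 FPKM were fitted (0.0419). Its level averaged 5357 ± 549.8 FPKM at 18 h and 9044 ± 4322 FPKM at 24 h (SD, n = 3 each).

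An07g08810 was at 7177 and 6379 FPKM at 66 h, against 2394, 3106 and 2665 FPKM at 42 h, a mean 2.49 times as high. The groups lay far apart, yet the gene was not called (log2 fold change 1.32, limma with Benjamini-Hochberg, adjusted p = 0.717). The 24 h libraries, which enter the estimate of the spread, differed widely: replicate 1 stood at 2234 FPKM and replicates 2 and 3 at 412 and 481 FPKM. It was called in 2 of 25 alternative settings, among them without 24 h replicate 1 (limma with Benjamini-Hochberg, adjusted p = 0.0325). With only the 5 libraries it was not called (0.243). In that fit An06g00500, An08g10990 and An12g03030 had the same adjusted p, so the value does not single out this gene.

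An09g04920 was at 539 and 683 FPKM at 66 h, against 467, 272 and 93.1 FPKM at 42 h (log2 fold change 1.41, SE 0.62, limma with Benjamini-Hochberg, adjusted p = 0.744). Its 42 h libraries were widely spread, and the highest of them came near the lower 66 h library. Its 42 h mean was 277.5 FPKM, so it reached a mean of 300 FPKM through the 66 h libraries.

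The other 5 of the 8 largest increases were 1.85-fold to 1.98-fold in the ratio of the means. An15g06700 was at 916 and 589 FPKM at 66 h, against 292, 518 and 329 FPKM at 42 h. An11g09660 was at 702 and 454 FPKM (80 and 49 reads) at 66 h, against 282, 283 and 322 FPKM (28, 29 and 32 reads) at 42 h. Its 42 h mean was 296 FPKM, so it too reached a mean of 300 FPKM through the 66 h libraries. An12g08220 was at 678 and 469.7 FPKM at 66 h, against 293, 308 and 317 FPKM at 42 h. In each of the 3 genes 66 h replicate 1 was the higher of the late libraries, and none was called (log2 fold changes 0.88 to 1.00, limma with Benjamini-Hochberg, adjusted p = 0.381 to 0.531). All 3 had been higher at 18 h than at 42 h, with means of 765, 714 and 923 FPKM at 18 h. An09g05625 averaged 1184 FPKM at 66 h and 626 FPKM at 42 h, and An11g04790 averaged 1681 FPKM at 66 h and 908 FPKM at 42 h. Neither was called (log2 fold changes 0.89 and 0.91), and An11g04790 had a 95% interval of -0.94 to 2.75 in log2.

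Among the abundant genes that were lower in both 66 h libraries, An05g01070 and An04g03200 came next to the 2 that were called. An05g01070 was at 226 and 250.45 FPKM (20 and 21 reads) at 66 h, against 480.45, 516 and 441 FPKM (37, 41 and 34 reads) at 42 h. An04g03200 was at 149.5 and 204 FPKM (17 and 22 reads) at 66 h, against 586, 469.6 and 384 FPKM (58, 48 and 38 reads) at 42 h. Both lay well outside the range of the 42 h libraries, with log2 fold changes of -1.004 and -1.43, and neither was called (limma with Benjamini-Hochberg, adjusted p = 0.0678 and 0.0866). In the alternative settings An05g01070 was called in 4 of 25 and An04g03200 in 2 of 25. Both reached a mean of 300 FPKM through the 42 h libraries, since their 66 h means were 238 and 177 FPKM.

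The other 4 large decreases were less certain. An02g10590 was at 139 and 147 FPKM at 66 h, against 407, 558 and 323 FPKM at 42 h (log2 fold change -1.54, SE 0.51). An11g04168 was at 217 and 313 FPKM at 66 h, against 387, 684 and 681 FPKM at 42 h (log2 fold change -1.11, SE 0.40). An12g10310 and An08g04650 averaged 241 and 436 FPKM at 66 h, against 666 and 823 FPKM at 42 h, with 95% intervals that included 0. None of the 4 was called (limma with Benjamini-Hochberg, adjusted p = 0.534 to 0.974). An02g10590, An11g04168 and An12g10310 reached a mean of 300 FPKM through the 42 h libraries, since their 66 h means were 143, 265 and 241 FPKM. An08g04650 at 66 h was above its levels at 18 h (67.1 ± 36.5 FPKM) and 24 h (105 ± 54.1 FPKM; SD, n = 3 each).

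**Figure D3:**
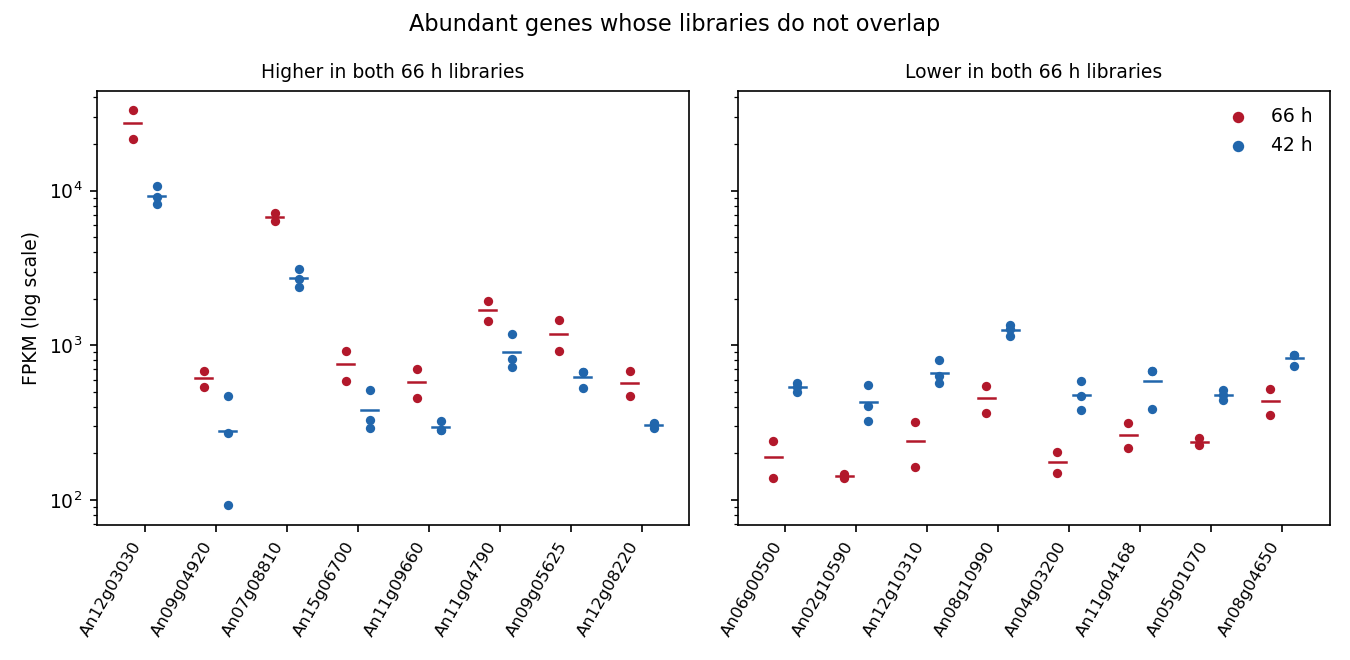
FPKM on a log scale in each library of 66 h (red, 2 points) and 42 h (blue, 3 points), with the mean as a bar, for the 8 largest increases and the 8 largest decreases among genes of at least 300 FPKM whose libraries do not overlap. In all 16 genes the phases are separate, and An06g00500 and An08g10990 were called.

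Of the 8 most abundant transcripts, all but An12g03030 had means that differed by less than 1.5-fold between the phases. An02g11627 was at 24944 and 30359 FPKM at 66 h, against 41669, 34850 and 41924 FPKM at 42 h, 0.52 lower in log2 (95% interval -0.81 to -0.22; limma with Benjamini-Hochberg, adjusted p = 0.293). An07g05770 was at 16214 and 14452 FPKM at 66 h, against 11105, 10635 and 11915 FPKM at 42 h. An08g11190 was at 13332 and 12614 FPKM at 66 h, against 10976, 10646 and 10993 FPKM at 42 h. These 3 genes did not overlap between the phases, and the means of An07g05770 and An08g11190 were 1.37 and 1.19 times as high at 66 h. An16g04190 was lower in both late libraries, at 9991 and 9423 FPKM, against 11702, 11386 and 11890 FPKM at 42 h (log2 fold change -0.26, SE 0.07). An16g05680 was also lower in both late libraries, at 28107 and 22814 FPKM, against 28818, 35181 and 29873 FPKM at 42 h. An11g03350 overlapped between the phases, at 7382 and 7199 FPKM at 66 h, against 7950, 7277 and 7673 FPKM at 42 h. None of these genes was called (limma with Benjamini-Hochberg, adjusted p = 0.293 to 1), though An16g04190 was with quantile normalization (0.0193).

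**Figure D4:**
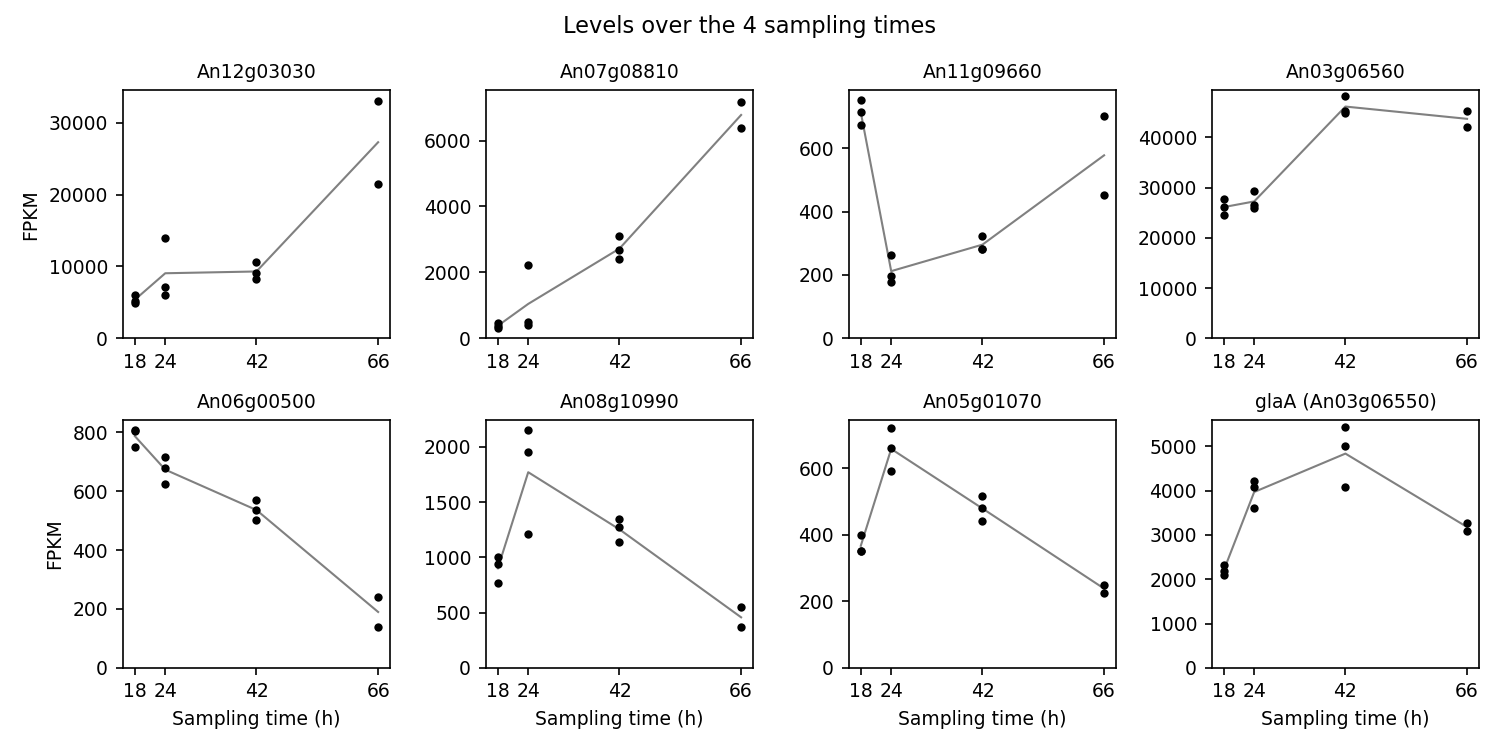
FPKM in every library (points) and the mean (line) at 18, 24, 42 and 66 h for 8 genes, each on its own linear axis from 0. An12g03030 and An07g08810 are highest at 66 h, An06g00500 is lowest there, An11g09660 is high at 18 and 66 h and lower between, and An03g06560 stays at the level of 42 h.

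Few genes could be given a function here: 38 of the 2751 carried a symbol in the reference table. None was called at an adjusted p under 0.05 (the lowest was 0.104, for glaA; limma with Benjamini-Hochberg adjustment), and 5 had an unadjusted p under 0.05 (glaA, both loci of amyA, cypA and pfkA). With the 2 identical loci of amyA counted once, 4 of 37 (10.8%) were higher and 10 of 37 (27.0%) lower in every 66 h library than in every 42 h library, against 13.5% and 15.7% of all 2751 genes. Of the 38, 10 had an interval within 2-fold. The median log2 fold change over the 38 was -0.21, beside -0.0029 over all 2750 genes.

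Genes of starch-degrading enzymes had lower values at 66 h, and none passed the test. glaA was at 3099 and 3260 FPKM at 66 h, against 5013, 4073 and 5427 FPKM at 42 h. Both late libraries were below all 42 h libraries, and the log2 fold change was -0.60 (SE 0.13, 95% interval -0.88 to -0.31; limma with Benjamini-Hochberg, adjusted p = 0.104), a difference called in 1 of 25 alternative settings, without 42 h replicate 2 (0.0266). The 2 loci of amyA, which encodes alpha-amylase, carried identical values, 786 and 852 FPKM at 66 h, against 1078, 1119 and 1102 FPKM at 42 h, so that they cannot be told apart and count as a single measurement. aglU, an alpha-glucosidase gene, was at 32.1 and 33.8 FPKM (9 and 9 reads) at 66 h, against 49.0, 71.1 and 106 FPKM (12, 18 and 26 reads) at 42 h. The 3 measurements of this list above the level minimum lay below 42 h in both late libraries, as did 15.7% of all 2751 genes, and 0 were called; amyR, the activator of these genes, was under the minimum.

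The 3 glycolytic genes above the minimum, of 6 measured, had higher means at 66 h, and none passed the test. pkiA, encoding pyruvate kinase, was at 1364 and 1469 FPKM at 66 h, against 1442, 1426 and 1216 FPKM at 42 h, with a log2 fold change of 0.06 (95% interval -0.38 to 0.50). gpdA, encoding glyceraldehyde-3-phosphate dehydrogenase, was at 408 and 408 FPKM at 66 h, against 370.15, 370.49 and 407 FPKM at 42 h. The intervals of both lay within 2-fold. pfkA, encoding phosphofructokinase, was at 72.0 and 42.7 FPKM (16 and 9 reads) at 66 h, against 20.6, 24.95 and 15.5 FPKM (4, 5 and 3 reads) at 42 h. It did not overlap between the phases, reached the level minimum through the 66 h libraries (means of 57.3 FPKM at 66 h and 20.3 FPKM at 42 h), and was not called (log2 fold change 1.43, SE 0.61, limma with Benjamini-Hochberg, adjusted p = 0.717), and 0 of the 3 glycolytic genes above the minimum were.

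Of 7 measured genes of respiration and the citrate cycle, 4 reached the minimum and none passed the test. aox1, the alternative oxidase gene, was at 431 and 477 FPKM at 66 h, against 566, 445 and 283 FPKM at 42 h, a log2 fold change of 0.13 with a 95% interval of -0.58 to 0.84. The late libraries lay inside the range of the 42 h libraries. citA, encoding citrate synthase, was at 22.6 and 63.5 FPKM (3 and 8 reads) at 66 h, against 69.0, 50.1 and 164 FPKM (8, 6 and 19 reads) at 42 h. cyc, encoding cytochrome c, had 6 and 2 reads at 66 h, against 1, 2 and 1 at 42 h, and cox5, a cytochrome c oxidase subunit gene, 2 and 0 reads at 66 h, against 3, 0 and 1 at 42 h. These counts are too low to describe a change, and 0 of the 4 were called. Of the alcohol, aldehyde and acetate genes, adhA (alcohol dehydrogenase) was at 61.7 and 54.3 FPKM at 66 h, against 82.8, 45.8 and 47.2 FPKM at 42 h. facB, the regulator of acetate use, was at 65.3 and 60.3 FPKM at 66 h, against 37.4, 45.3 and 46.7 FPKM at 42 h, and aldA (aldehyde dehydrogenase) averaged 29.2 FPKM at 66 h and 35.2 FPKM at 42 h, with 0 of 3 called.

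In the secretory pathway, bipA, which encodes a folding chaperone of the endoplasmic reticulum, was at 179 and 249.7 FPKM (34 and 45 reads) at 66 h, against 283, 286 and 379.6 FPKM (47, 49 and 63 reads) at 42 h. Its groups did not overlap, and it was not called (log2 fold change -0.57, 95% interval -1.14 to 0.01; limma with Benjamini-Hochberg, adjusted p = 0.779). prpA, a relative of protein disulfide isomerase, had 1 to 6 reads in each library. These were the 2 of 10 measured genes of this list that reached the level minimum, and 0 were called. PrtT, which switches on secreted proteases, was at 437 and 288 FPKM (77 and 48 reads) at 66 h, against 313, 322 and 371 FPKM (48, 51 and 57 reads) at 42 h, so that its late libraries lay on both sides of the 42 h range. The vacuolar protease gene pepE was at 9 and 28.5 FPKM at 66 h, against 31.0, 100.1 and 51.6 FPKM at 42 h, and the secreted aspartic protease gene pepA at 18.2 and 19.2 FPKM, against 73.2, 40.5 and 20.9 FPKM. Both were lower in every late library, on 1 to 3 reads there, and reached the level minimum through the 42 h libraries. proctase-A, of the same list, had a higher mean at 66 h, with 64.5 and 13.6 FPKM at 66 h, against 29.7, 43.1 and 0 FPKM at 42 h. pepC was at 28.6 and 37.8 FPKM at 66 h, against 41.1, 63.6 and 32.8 FPKM at 42 h, and 0 of the 5 protease genes were called.

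niaD, encoding nitrate reductase, was at 365 and 304 FPKM (90 and 71 reads) at 66 h, against 418, 337 and 488 FPKM (90, 75 and 105 reads) at 42 h, and its interval of -0.91 to 0.31 in log2 lay within 2-fold. gdhA, an NADP-dependent glutamate dehydrogenase gene, was at 139.5 and 164 FPKM at 66 h, against 116, 129 and 240.1 FPKM at 42 h. In both genes the libraries overlapped, and 0 of the 2 were called. pacC, the regulator of the response to ambient pH, was at 95.3 and 117 FPKM at 66 h, against 109, 106 and 97.1 FPKM at 42 h, and cpcA, the regulator of amino acid supply, had 0 to 2 reads in each library. Of the plant polysaccharide genes, eglB (endoglucanase) was at 185 and 184 FPKM at 66 h, against 201, 134 and 150 FPKM at 42 h. aglB (alpha-galactosidase) averaged 78.8 FPKM at 66 h and 107 FPKM at 42 h, rhgA (rhamnogalacturonase) 32.9 and 48.5 FPKM, and pgaC (polygalacturonase) 43.1 and 56.3 FPKM. Of these 4, which were all that reached the minimum among 19 measured genes of the list, 0 were called, and likewise 0 of the 2 regulators.

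In several short or low genes the 2 late libraries went apart. cypA, a cyclophilin gene, was at 118 FPKM (7 reads) in 66 h replicate 1 and listed at 0 in replicate 2, against 194, 358 and 155 FPKM (10, 19 and 8 reads) at 42 h. rps28 had 4 and 0 reads at 66 h, against 2, 3 and 3 at 42 h, and both genes were called only without 66 h replicate 1 (limma with Benjamini-Hochberg, adjusted p = 0.00184 for cypA and 0.0386 for rps28), which leaves a single late library that is taken to vary like the other times. rpl15, another ribosomal protein gene, was at 201 and 96.5 FPKM at 66 h, against 211, 266 and 126 FPKM at 42 h. suc1, encoding the sucrose-cleaving invertase, had 12 and 1 reads at 66 h, against 13, 8 and 13 at 42 h. None of these 4 genes was called with all libraries, and their late values cannot be summarised by a mean alone.

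**Figure D5:**
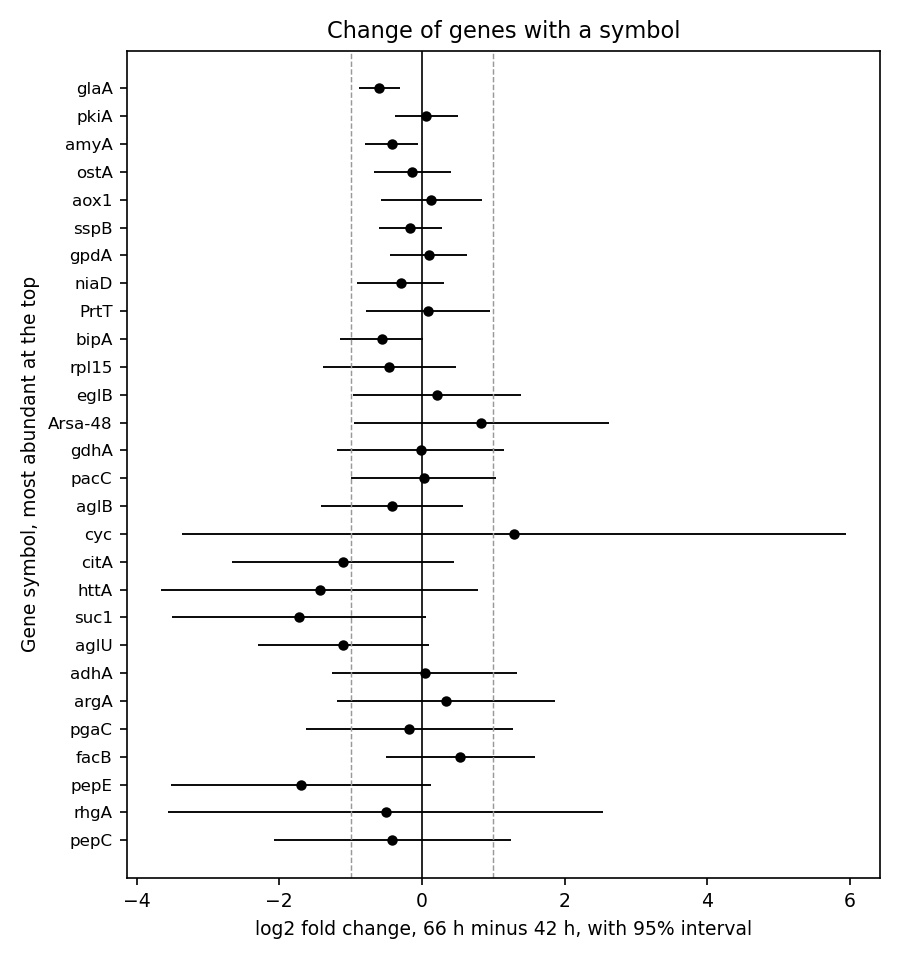
Log2 fold change of 66 h against 42 h with its 95% interval for 28 genes with a symbol, a mean of at least 40 FPKM and no value of 0 in the 5 libraries (amyA drawn once), ordered by level with the most abundant at the top; dashed lines mark 2-fold. Intervals widen towards the bottom as the level falls, and glaA and amyA are the only genes drawn whose interval excludes 0.

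Neighbouring genes were compared by their order in the reference table. Among the 205 genes of at least 300 FPKM whose libraries did not overlap, 11 pairs lay at most 2 genes apart, of which 8 had log2 fold changes of the same sign and 3 of opposite signs, with none of these genes called. Over all 65 such pairs of genes at this level, overlapping or not, 50.8% had the same sign. An04g04210 and An04g04220 both had higher levels at 66 h (log2 fold changes 0.63 and 0.36), while An11g07340 and An11g07350 were both lower (-0.45 and -0.60). An12g03030, with its increase of 1.53 in log2, lay beside An12g03040, which was 0.29 lower. In a further pair, An09g06420 and An14g06230, the loci overlap in the reference, and reads of overlapping genes cannot be told apart. These pairs were chosen after their values were seen.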

How the data were processed

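RNA of 11 libraries of Aspergillus niger DS03043 was sequenced, and 5 of them (66 h, n = 2; 42 h, n = 3) form the comparison. The authors deposited FPKM values per gene and library, named so per the file headers. RSEM is named in the submitters' processing notes. For the aligner, versions, genome build and any scaling between libraries, nothing is stated: not given in the sources used here. After keeping the 8693 genes that reached 1 FPKM in 2 or more libraries, limma 3.58.1 (R 4.3.3) was applied to log2(FPKM + 1) of all 11 libraries, with a mean per time, empirical Bayes variances trended on level, and Benjamini-Hochberg adjustment over all 8693 genes. Fold changes on this scale understate those of low genes that are above 0 in every library. Where a library is listed at 0, they can instead overstate the change in the mean or turn its sign round. The mean of rps28 at 66 h was 0.657 times that at 42 h, beside a log2 fold change of -2.95. For cpcA these values were 0.653 and 0.64. The 2751 genes with a mean of at least 30 FPKM over the 5 libraries were then read from this fit.

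Reads were recovered by finding, for each gene above 0 in at least 4 libraries, the largest FPKM step of which every value, corrected for relative depth, is a whole multiple. The tolerance was 0.06 reads plus 0.001 per read, up to 0.2, and a step had to fit the length of the gene to within 0.6 to 3 times the median. A count can be a multiple of the one given. Over 6364 genes with a step, the libraries held 46200 and 45211 reads at 66 h and 40855 to 42172 at 42 h.

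Named genes were all those called, the 8 largest increases and decreases of at least 300 FPKM without overlap, and the 8 most abundant. Genes with a symbol and an unadjusted p under 0.05 were named too, as were up to 4 per gene list. The last were the 6 genes of at least 300 FPKM whose 95% interval reached least far from 0. Symbols came from a RefSeq table of assembly ASM285v2, in which 10417 identifiers matched and 28 did not. Genes were listed by function from these symbols; none of the conidiation markers brlA, abaA, wetA, fwnA, olvA and brnA carried one, so sporulation was not analysed here. Members and lists were chosen with earlier results of these data known. The fit was tested on simulated data. Alternatives were other pseudocounts, filters, variance models and scalings, a replicate block, only the 5 libraries, and each library left out in turn. Tables used pandas 2.3.3 and numpy 2.4.6; plots used matplotlib 3.10.9.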

Additional observations from a re-analysis of the deposited data

How the results depend on the processing

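The number of genes called was the least stable result. Over all 8693 genes it was 37, and 61 and 24 with pseudocounts of 0.1 and 5, 66 without a filter, 16 with the filter at 10 FPKM, 4 with the mean of 30 FPKM required before the fit, 5 with a mean of 300 FPKM required (an alternative chosen after seeing the data), 67 without a variance trend, 8 with robust empirical Bayes, 106 with weights by level (vooma) and 0 with only the 5 libraries. Leaving out each library in turn gave 17 to 95. Of the genes of at least 30 FPKM, 7 were called, 4 with the filter at 30, 20 with weights (7 higher, 13 lower) and 0 with only the 5 libraries; with the filter at 300, 1 was higher and 4 lower. Leaving out single libraries gave 7 to 16, with 0 to 5 higher and 6 to 16 lower: 14 without 24 h replicate 1, 13 without 42 h replicate 2 (5 higher), and 16 without either 66 h library, of which 4 and 3 were among the original 7. Whether the replicate numbers of the labels pair the libraries is not known. Deviations of same-numbered libraries correlated at -0.09 to 0.08, and those of other pairs at -0.08 to 0.06. With few reads per gene these values cannot exclude pairing. In a fit blocked on that number 4 genes in all and 3 of at least 30 FPKM were called, all 3 lower. An06g00500 was not called there (limma with Benjamini-Hochberg, adjusted p = 0.132). Intervals within 2-fold numbered 455, 13 without a variance trend and 253 to 505 without single libraries. The median log2 fold change was -0.0029, 0.0564 with median-of-ratios scaling and -0.0207 to 0.0752 without single libraries. The correlation between the phases was 0.676, 0.547 and 0.775 with pseudocounts of 0.1 and 5 and 0.907 at 300 FPKM or more; within 42 h these were 0.695, 0.571, 0.791 and 0.933, and within 66 h 0.710, 0.587, 0.804 and 0.940. Genes without overlap numbered 371 higher and 432 lower, and 420 and 393 with median-of-ratios scaling, where the balance turned round. Of the 65 named genes, 18 changed sign in some setting, 0 of them called. In log2, An11g03350 stood at 0.0136 with quantile normalization, An01g10180 at -0.0467, pacC at -0.0205 and gdhA at 0.0028; gdhA stood at 0.0400 and An18g06610 at 0.0027 with median-of-ratios scaling. In the blocked fit pacC stood at -0.0812, gdhA at 0.0300, pkiA at -0.0194 and aldA at 0.228. Without single libraries the range was -0.984 to 0.0676 for rpl15, -0.441 to 0.808 for prpA, -2.47 to 3.75 for cpcA, -0.0600 to 0.0801 for An01g10180, -0.124 to 0.174 for pacC, -0.220 to 0.303 for gdhA, -0.215 to 0.387 for PrtT, -0.0047 to 0.112 for An05g00380 and -0.755 to 0.198 for pgaC. It was -0.0185 to 0.114 for pkiA, -6.32 to 0.412 for rps28, -0.558 to 0.0783 for aldA, -0.147 to 0.352 for aox1, -0.0372 to 0.0894 for An11g09590, -4.19 to 2.09 for cox5, -0.110 to 0.310 for adhA and -0.152 to 0.0377 for An18g06610. The causes were not tested. Among the genes with a range given, rps28, cpcA and cox5 were listed at 0 in some of the 5 libraries, where log2 values depend strongly on the pseudocount. At 30 to 100 FPKM the median SE of the log2 fold change was 0.91, against 0.18 at 1000 FPKM or more.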
